A study of Gallus gallus with 16 samples.

Results

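The most evenly expressed genes of the hypothalamus, pituitary gland and ovary of laying hens were 200 genes of the 17108 in the table. They were chosen from 13 libraries: hypothalamus HEP 3 and LEP 4, 6 pituitaries and 5 ovaries. FPKM (sequenced fragments divided by transcript length and by the mapped fragments of the library) had to be above 0 in all 13, which 12312 genes met, and to average at least 20, which left 4854. The 200 with the smallest standard deviation (SD) of log2(FPKM + 1) were kept. Evenness is therefore the rule and not a result, and the levels in these 13 libraries are given as a description.

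The birds were female Chinese Luhua chickens, a local breed, sampled at 300 days of age with free access to water and feed. Of 856 birds ranked by the eggs they had laid, the top 200 formed the high producers (HEP) and the bottom 200 the low producers (LEP). Hens 1, 2 and 3 were HEP and hens 4, 5 and 6 were LEP, and a code in the labels shows which tissues came from 1 hen. All birds were of the same breed, age and sex, and the labels name no treatment. Pituitaries came from 3 HEP and 3 LEP hens, ovaries from 2 HEP and 3 LEP hens and hypothalami from 2 HEP and 3 LEP hens, which makes 16 libraries. The libraries are of whole tissue, in which fewer cells of a type and less RNA per cell cannot be told apart.

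The hypothalamus releases the peptides that drive the pituitary, the pituitary releases the gonadotropins and prolactin that control the ovary, and ovarian steroids feed back on both. Genes that every cell needs, for protein synthesis, protein breakdown, energy supply or transport within the cell, are commonly found at similar levels in unlike tissues and are the usual source of reference genes for quantitative PCR. Whether the 200 genes are of that kind cannot be read from these files. The rows carry Ensembl identifiers only, 0 of which matched the reference gene table, so no gene is given a name, a role or a sequence, lists of such genes were not used here, and the tissue labels were not checked against marker genes. Genes are described by identifier and by their values.

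In these 13 libraries 13713 to 14356 genes were listed above 0 FPKM. Hypothalamus HEP 1, LEP 5 and LEP 6 listed only 6186, 6843 and 6465. Apart from the shares of summed FPKM given below, they were used here only to see which genes they list. The reads per library are unknown. In each of the 16 libraries the 3 highest genes took 47.3% to 75.1% of summed FPKM, while the 200 even genes together took 0.304% to 0.777%.

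The 200 genes were of moderate abundance. Their mean FPKM ran from 20 to 401 with a median of 37.4, close to the median of 38.4 FPKM of the 4654 other genes past both filters. A mean of 20 to 30 FPKM was found for 67 of them, 30 to 60 FPKM for 83, 60 to 100 FPKM for 30 and over 100 FPKM for 20. Among the other genes 688 of 4654, or 14.8%, averaged over 100 FPKM, against 10% of the even genes, and the highest mean among the other genes was 847783 FPKM.

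The SD of the 200 genes ran from 0.108 to 0.223 on the log2(FPKM + 1) scale with a median of 0.20, against a median of 0.56 in the other genes. The highest of the 13 libraries stood at 1.27 to 2.02 times the lowest, with a median ratio of 1.61. This ratio was under 1.5 in 37 genes and under 2 in 199, and the median ratio in the other genes was 3.66. The edge of the list is no gap. ENSGALG00000009228, the last gene inside, had an SD of 0.22329 and a mean of 53.8 FPKM, and ENSGALG00000006088, the first outside, an SD of 0.22333 and a mean of 30.1 FPKM. A further 313 of the 7458 genes above 0 in all 13 libraries but under 20 FPKM had an SD as small as this, 130 of them with a mean under 1 FPKM, where the added 1 flattens the scale.

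**Figure D1:**
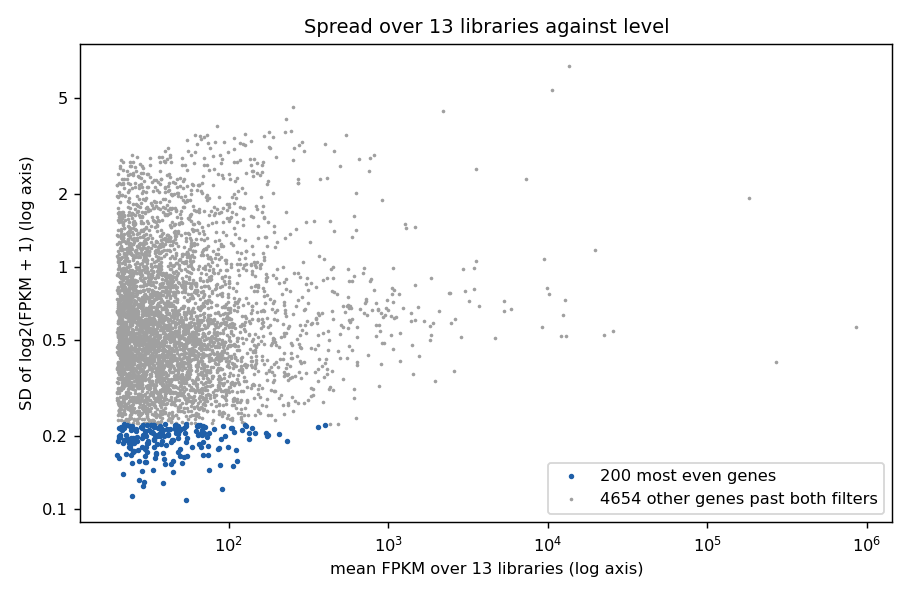
Mean FPKM (x axis, log) and SD of log2(FPKM + 1) over the 13 libraries (y axis, log) for the 200 most even genes (blue) and the 4654 other genes past both filters (grey), 1 point per gene. The blue points lie at SDs of 0.108 to 0.223 by the rule and reach no higher than 401 FPKM.

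ENSGALG00000010842 had the smallest SD of all. It stood at 60.1 FPKM in hypothalamus HEP 3 and 47.2 FPKM in hypothalamus LEP 4. In the pituitary it had 54.4, 48.3 and 56.9 FPKM in HEP hens and 54.0, 54.5 and 58.2 FPKM in LEP hens, and in the ovary 56.3 and 55.7 FPKM in HEP hens and 52.7, 48.4 and 57.7 FPKM in LEP hens. The pituitary averaged 54.4 ± 3.42 FPKM (SD, n = 6) and the ovary 54.2 ± 3.71 FPKM (SD, n = 5), with full overlap, and the highest and lowest values of the gene were those of the 2 hypothalamus libraries.

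ENSGALG00000009202, the second most even, was expressed at a lower level. It had 24.8 FPKM in hypothalamus HEP 3 and 23.9 FPKM in hypothalamus LEP 4. The pituitary gave 23.3, 22.9 and 29.3 FPKM in HEP hens and 27.9, 22.7 and 24.7 FPKM in LEP hens, and the ovary 22.4 and 23.0 FPKM in HEP hens and 25.9, 25.8 and 25.3 FPKM in LEP hens. The tissues overlapped, and within the ovary the 2 HEP values lay below the 3 LEP values (log2 difference -0.17, SE 0.15, limma adjusted p = 1.00).

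ENSGALG00000006512 was the most abundant of the 200 and among the least even of them, with an SD of 0.22. It had 487 FPKM in hypothalamus HEP 3 and 369 FPKM in hypothalamus LEP 4. The pituitary gave 329, 365 and 387 FPKM in HEP hens and 328, 537 and 457 FPKM in LEP hens, and the ovary 437 and 339 FPKM in HEP hens and 404, 355 and 415 FPKM in LEP hens. Its spread lay within tissues and not between them. The pituitary averaged 401 ± 82.0 FPKM (SD, n = 6) and the ovary 390 ± 41.4 FPKM (SD, n = 5), and every ovary value lay inside the pituitary range.

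**Figure D2:**
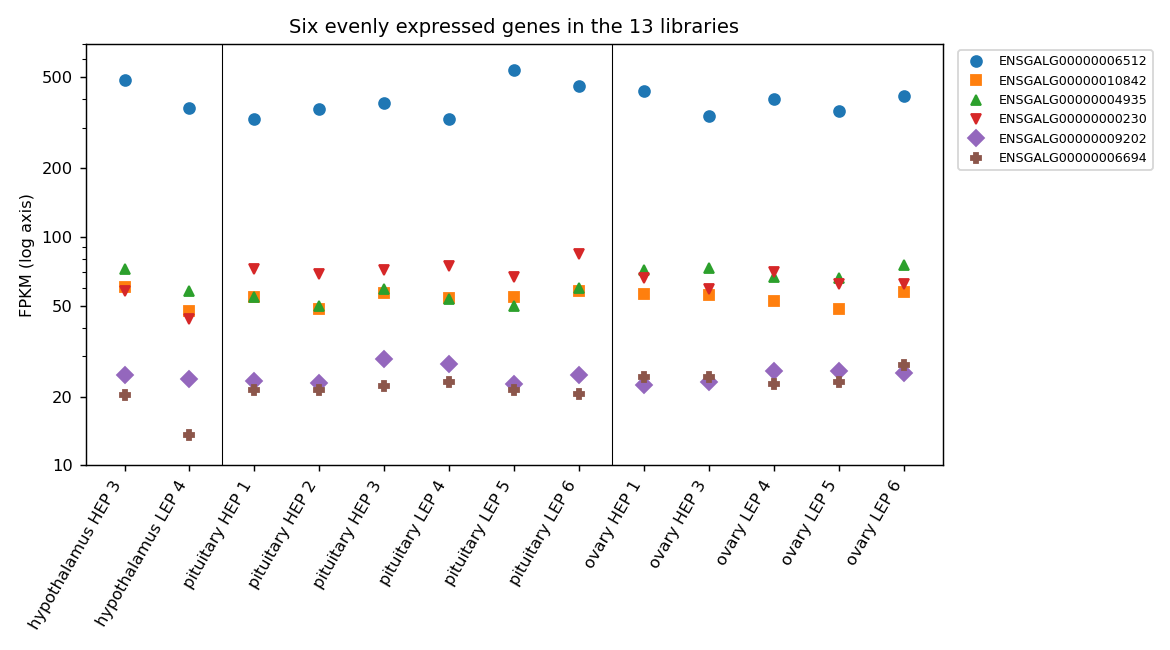
FPKM (y axis, log) of 6 of the 200 genes in each of the 13 libraries (x axis; vertical lines part hypothalamus, pituitary and ovary, HEP before LEP), 1 point per library. ENSGALG00000010842 stays between 47.2 and 60.1 FPKM, and ENSGALG00000006694 is lowest in hypothalamus LEP 4.

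For most of the genes the spread among libraries of a tissue was as large as that between tissues. The SD within tissues exceeded the SD of the 3 tissue means in 134 of the 200 genes, against 460 of 4654 other genes (9.88%), which the rule favours. The within-tissue SD had a median of 0.17 in the even genes and 0.25 in the others. The span between the highest and the lowest tissue mean was 0.03 to 0.52 with a median of 0.25 on the log2 scale, and under 0.1 in 16 genes. The hypothalamus had the highest mean in 57 genes, the pituitary in 67 and the ovary in 76. In the same order of tissues, the lowest mean was in 95, 63 and 42 genes (47.5%, 31.5% and 21%). Of the other genes 24.0%, 24.7% and 51.3% had their highest mean there, and 51.2%, 30.9% and 17.9% their lowest. The hypothalamus mean rests on 2 libraries that themselves differ, as given next.

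Whole libraries sat above or below the rest. In hypothalamus LEP 4, 174 of the 200 genes were under their own mean over the 13 libraries, with a median deviation of -0.27, and 101 of them had their lowest value there. In pituitary LEP 6, 187 were above their own mean, with a median deviation of 0.21, and 75 had their highest value there. Pituitary HEP 3 had 152 above their own mean, a median deviation of 0.10 and 15 highest values, and hypothalamus HEP 3 had 146 above, a median deviation of 0.15 and 52 highest values. Pituitary LEP 5 had 149 below their own mean, a median deviation of -0.11 and 27 lowest values. The 5 ovaries had median deviations between -0.0037 and 0.084, so their medians lay at neither end. Single genes still had their extremes there: ovary LEP 6 held 26 highest values, and ovary LEP 4 held 17 highest and 11 lowest. Per library, the median level of the 200 genes was 30.4 to 40.9 FPKM in the hypothalamus, 34.0 to 43.3 FPKM in the pituitary and 35.2 to 39.8 FPKM in the ovary.

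Within each tissue the other genes had their highest and lowest library medians in the same libraries as the even genes. The highest were pituitary LEP 6, ovary LEP 6 and hypothalamus HEP 3. The lowest were pituitary LEP 5, ovary HEP 1 and hypothalamus LEP 4. The offsets between tissues differed between the sets, and the rule keeps them small in the even genes. The median deviation of the other genes was -0.077 in hypothalamus HEP 3 and -0.62 in hypothalamus LEP 4. It lay between -0.23 and 0.14 in the pituitary and between 0.14 and 0.30 in the ovary. On the FPKM scale 2388 of the 4654 other genes (51.3%) had their highest mean in the ovary, against 38% of the even genes.

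**Figure D3:**
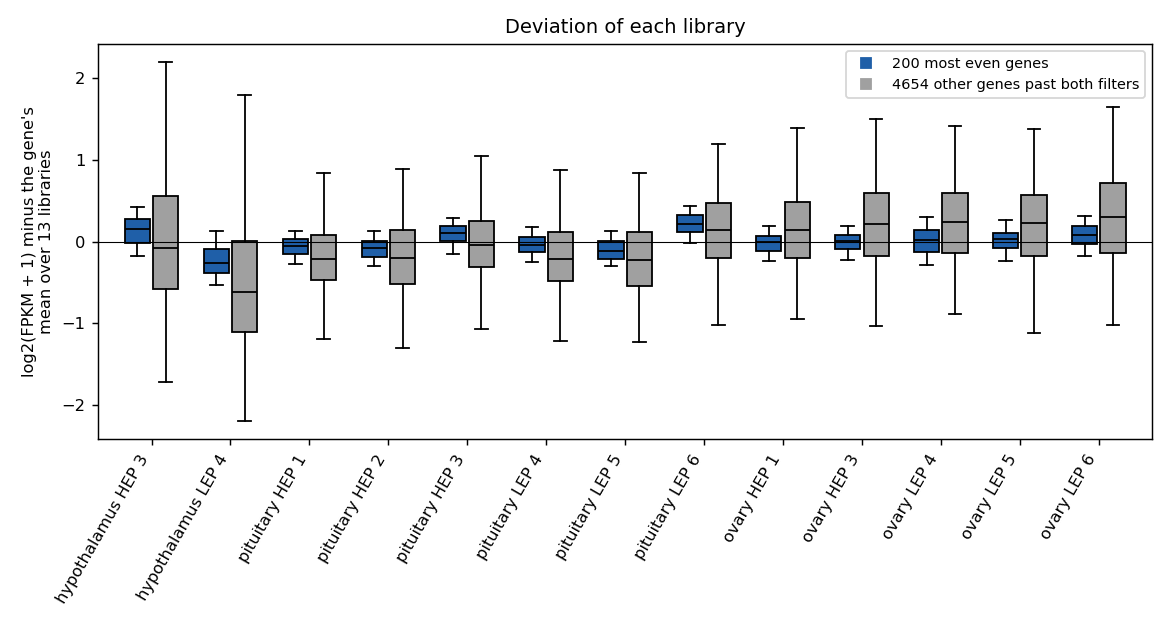
Deviation of log2(FPKM + 1) from each gene's mean over 13 libraries (y axis) by library (x axis), for the 200 most even genes (blue) and the 4654 other genes past both filters (grey). Boxes show quartiles and median, whiskers the 5th to 95th percentile of genes. The blue medians lie between -0.27 and 0.21, and the grey medians at -0.62 in hypothalamus LEP 4 and at 0.14 to 0.30 in the ovaries.

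Which genes count as even depends on the scale of the libraries. Median-ratio scaling divides each library by a size factor, so that the typical gene is equal in all. The size factors ran from -0.56 to 0.33 on the log2 scale. The same rule on scaled values kept 36 of the 200 genes, and on quantile-normalized values 44. Both kept 26 and neither kept 146. All of the 26 had their highest mean in the ovary on the deposited scale. The ovaries have the largest size factors, so genes even before and after scaling tend to start higher there. This count therefore follows from the choice of genes. After median-ratio scaling the median SD of the 200 genes was 0.23, against 0.20 as deposited, and that of the other genes 0.49, against 0.56. The largest SD of the 200 as deposited was 0.223. After scaling 85 of the 200 were at or under it, and so were 420 of the 4654 other genes.

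After median-ratio scaling the medians of the 200 genes put the hypothalamus highest and the ovary lowest. The genes were chosen to be flat as deposited, and the scaling divided the ovaries by 1.11 to 1.26. It divided hypothalamus HEP 3 by 0.955 and hypothalamus LEP 4 by 0.679. This order is therefore largely set by the rule and the size factors, and is not a result about the genes. Hypothalamus minus ovary was positive in 198 genes with a median of 0.44, pituitary minus ovary in 196 with a median of 0.28, and hypothalamus minus pituitary in 144 with a median of 0.15. On the FPKM scale the same differences were positive in 76, 90 and 86 genes with medians of -0.08, -0.02 and -0.06. Both hypothalamus medians turn with 1 library: without hypothalamus LEP 4 hypothalamus minus ovary had a median of 0.12 and hypothalamus minus pituitary of 0.15, and without hypothalamus HEP 3 they were -0.27 and -0.25. Quantile normalization gave medians of 0.20 for hypothalamus minus ovary, 0.32 for pituitary minus ovary and -0.14 for hypothalamus minus pituitary, so the sign of hypothalamus minus pituitary differs between the scalings. Which scale holds per cell was not tested.

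**Figure D4:**
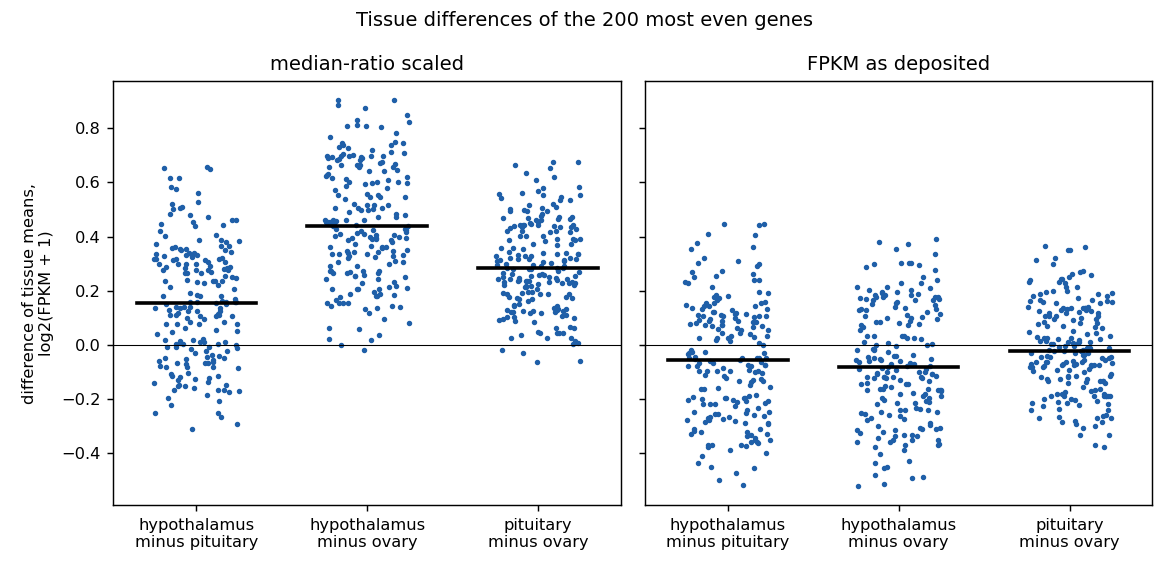
Difference of tissue means on the log2(FPKM + 1) scale (y axis) for the 3 pairs of tissues (x axis), after median-ratio scaling (left panel) and as deposited (right panel). Each point is 1 of the 200 genes and the bar is their median, at 0.15, 0.44 and 0.28 in the left panel and at -0.06, -0.08 and -0.02 in the right panel.

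Small tissue differences remained inside the list. They were fitted with limma over all 12745 genes with a mean of at least 1 FPKM, with Benjamini-Hochberg adjusted p under 0.05 as the threshold, but the rule used these same values, so the numbers that follow describe the list and test nothing about it. Between hypothalamus and pituitary 28 of the 200 genes passed, 8 higher and 20 lower in the hypothalamus, where 59.8% of all genes passed, 24.5% higher and 35.3% lower. Between hypothalamus and ovary 27 passed, 5 higher and 22 lower in the hypothalamus, where 66.7% of all genes passed, 19.2% higher and 47.4% lower. Between pituitary and ovary 32 passed, 15 higher and 17 lower in the pituitary, where 71% of all genes passed, 23.8% higher and 47.2% lower. The differences that passed were between 0.21 and 0.52 on the log2 scale, and none reached 1.

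These numbers moved with the fit. With hen as a block 11, 11 and 16 of the 200 genes passed for the 3 pairs in that order, where 54.4%, 62.7% and 68.2% of all genes passed. With median-ratio scaling 63, 155 and 135 passed, where 64.1%, 66.9% and 72.9% of all genes did. With quantile normalization 59, 69 and 142 passed, where 64.1%, 66.3% and 73.3% of all genes did. Median-ratio scaling put 60 of the 63, all 155 and all 135 in the direction of the tissue named first. That direction is largely set by the rule and the size factors, as said above. Quantile normalization put 8 of the 59, 67 of the 69 and all 142 in the direction of the tissue named first. Without hypothalamus LEP 4 the numbers for hypothalamus against pituitary and against ovary were 7 and 12, where 47.1% and 54% of all genes passed, and without hypothalamus HEP 3 the number against ovary was 42, where 62.5% did. Leaving out ovary HEP 1 gave 14 against the hypothalamus and 14 against the pituitary, and leaving out ovary HEP 3 gave 14 and 15. For pituitary against ovary, 20 genes passed without pituitary HEP 1, 21 without pituitary HEP 2, 20 without ovary LEP 5 and 50 without pituitary LEP 6. Leaving out 1 library put the share of all genes at 64.5% to 71.8% for pituitary against ovary and at 54% to 68.4% for hypothalamus against ovary.

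ENSGALG00000004935 had the largest difference between pituitary and ovary among the 200. The pituitaries of HEP hens had 54.4, 49.9 and 59.3 FPKM and those of LEP hens 53.2, 49.7 and 59.7 FPKM. The ovaries had 71.3 and 73.4 FPKM in HEP hens and 66.7, 66.1 and 75.3 FPKM in LEP hens, all above every pituitary (log2 difference -0.38, SE 0.088, limma adjusted p = 0.00292). It did not pass with median-ratio scaling (log2 difference -0.066, adjusted p = 0.281) or quantile normalization (log2 difference -0.073, adjusted p = 0.322), and its adjusted p ranged from 0.00125 to 0.322 across the alternatives. The libraries of pituitary and ovary did not overlap in 14 of the 200 genes, 9 with the pituitary higher and 5 with the ovary higher, where 55.1% of all genes did not overlap, 18.3% with the pituitary higher and 36.8% with the ovary higher.

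ENSGALG00000000230 differed most between hypothalamus and pituitary. It had 58.2 FPKM in hypothalamus HEP 3 and 43.8 FPKM in hypothalamus LEP 4. The gap between these libraries adds nothing to the SE given next. The pituitaries stood at 72.1, 69.1 and 71.5 FPKM in HEP hens and 74.5, 67.0 and 84.1 FPKM in LEP hens, above both hypothalami (log2 difference -0.52, SE 0.12, limma adjusted p = 0.00311). Without hypothalamus LEP 4 it did not pass (log2 difference -0.32, adjusted p = 0.123), and its alternatives ranged from 0.000688 to that value.

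ENSGALG00000006694 differed most between hypothalamus and ovary, and is the 1 gene of the 200 whose highest library is over 2 times its lowest. It had 20.3 FPKM in hypothalamus HEP 3 and 13.6 FPKM in hypothalamus LEP 4. Here too the gap between these libraries adds nothing to the SE. The ovaries had 24.4 and 24.4 FPKM in HEP hens and 22.6, 23.2 and 27.5 FPKM in LEP hens, above both hypothalami (log2 difference -0.52, SE 0.12, limma adjusted p = 0.00302). It did not pass without hypothalamus LEP 4 (log2 difference -0.25, adjusted p = 0.210), with median-ratio scaling (log2 difference -0.020, adjusted p = 0.900) or with quantile normalization (log2 difference -0.10, adjusted p = 0.497), and its alternatives ranged from 0.00170 to 0.900.

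Between HEP and LEP hens none of the 200 genes passed in pituitary, in ovary or in the mean of the 3 tissues (limma, all adjusted p at or above 0.649). Of all 12745 genes 0.00785% passed in the pituitary, 0.0235% in the ovary and 0.204% in the mean, 0.149% higher and 0.0549% lower in HEP hens. At an unadjusted p under 0.05 there were 0 of the 200 in pituitary and 0 in ovary, where 1.62% and 1.98% of all genes were, and 9 in the mean, where 7.45% of all genes were. The interaction of pituitary and ovary gave 0 at the adjusted and 2 at the unadjusted threshold, where 0.0157% and 1.1% of all genes were called. The rule selects against such differences, and nothing is read from these counts.

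ENSGALG00000002719 had the lowest p of the 200 in these comparisons. It stood at 48.1 FPKM in hypothalamus HEP 3 and 27.6 FPKM in hypothalamus LEP 4. In the pituitary it had 35.3, 34.6 and 38.7 FPKM in HEP hens and 36.1, 28.3 and 36.3 FPKM in LEP hens, and in the ovary 30.3 and 30.3 FPKM in HEP hens and 28.7, 30.3 and 35.7 FPKM in LEP hens. HEP and LEP values overlapped in both of these tissues, and the wide gap was that between the 2 hypothalami (mean of tissues, log2 difference 0.28, SE 0.10, limma adjusted p = 0.649). Its adjusted p lay between 0.288 and 0.999 across the alternatives.

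In the pituitary the HEP minus LEP difference was positive in 63 and negative in 137 of the 200 genes, with a median of -0.04, and in the ovary it was positive in 61 and negative in 139, with a median of -0.05. Among the 4654 other genes past both filters HEP exceeded LEP in 1624 in the pituitary and in 1610 in the ovary. Their medians were -0.05 and -0.07. In both tissues hen LEP 6 had the library with the highest median of its tissue. Without pituitary LEP 6 the median of the 200 genes in the pituitary was 0.06, and with quantile normalization it was 0.03 in the pituitary and 0.01 in the ovary. Hypothalamus HEP 3 exceeded LEP 4 in 185 of the 200 genes with a median of 0.38, and in 4316 of 4654 other genes with a median of 0.52, a difference between 2 libraries that has no replicate check. The mean of the 3 tissues, which holds this pair, had a median HEP minus LEP difference of 0.10 in the 200 genes as deposited, -0.05 after median-ratio scaling and -0.03 after quantile normalization.

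The rule was also applied within 1 production group, and its list read in the other. Applied to the 6 HEP libraries alone, the rule gave 200 genes whose median SD was 0.13 there and 0.30 in the 7 LEP libraries, where all 4871 genes that passed the filters in HEP had a median of 0.59. Of these 200, 198 lay under that median. Applied to the 7 LEP libraries alone, it gave 200 genes with a median SD of 0.20 there and 0.23 in the 6 HEP libraries, against 0.51 for all 4848 genes, with 193 under that median. The 2 lists shared 35 genes, or 17.5% of each. The HEP list shared 89 genes with the list from all 13 libraries and the LEP list 113. The libraries of each group are part of those 13, so this overlap is partly built in. HEP and LEP libraries come from different hens, but they share the tissues and the deposited scale. Reading a list in the other group is therefore no check on either, and what the 2 groups have in common was not tested.

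Leaving out 1 of the 13 libraries kept 118 to 191 of the 200 genes. Without hypothalamus HEP 3 the rule kept 136, without hypothalamus LEP 4 it kept 118, and without both 82. The other 11 libraries left 164 to 191. All 13 of these lists held 86 of the 200 genes. ENSGALG00000010842 and ENSGALG00000009202 were in each of the 13, but in neither scaled list.

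The 3 hypothalamus libraries with few genes played no part in the choice. Of the 200 genes hypothalamus HEP 1 listed 174 above 0 (87%), LEP 5 listed 179 (89.5%) and LEP 6 listed 181 (90.5%). Of the 4654 other genes past both filters they listed 72.0%, 76.0% and 73.9%, and of all 17108 genes 36.2%, 40.0% and 37.8%. All 3 libraries listed 148 of the 200 genes, or 74%, and 53.2% of the other genes past both filters. The levels of these sets were unlike. In hypothalamus HEP 3 and LEP 4, 1416 of the 4654 other genes averaged under 20 FPKM, against 9 of the 200. Shares by level are given below. A value of 0 here need not mean that the gene was silent, since each of these genes was above 0 in the other hypothalami, HEP 3 and LEP 4.

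Of the 200 genes, hypothalamus HEP 1 had 26 at 0, LEP 5 had 21 and LEP 6 had 19. At 0 in both HEP 1 and LEP 5 were 6 genes, with 7 in both HEP 1 and LEP 6, and 4 in both LEP 5 and LEP 6. In exactly 2 of the 3 libraries 41 genes were listed above 0, in 1 library 8 and in none 3, which is 1.5% of the 200 against 8.12% of the other genes. Of the 378 other genes listed in none, 286 averaged under 20 FPKM in hypothalamus HEP 3 and LEP 4, where few even genes lay. By that mean the shares listed in none were 3.03% of even and 5.69% of other genes at 20 to 30 FPKM. They were 0% and 2.61% at 30 to 60 FPKM, and 2.08% and 1.31% at 60 FPKM and over.

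The 3 that were listed in none include ENSGALG00000026009, with a mean of 68.5 FPKM over the 13 libraries. It stood at 84.4 FPKM in hypothalamus HEP 3 and 50.8 FPKM in hypothalamus LEP 4, at 58.3 to 79.6 FPKM in the 6 pituitaries and at 60.2 to 71.9 FPKM in the 5 ovaries. The other two, named here after their values were seen, were ENSGALG00000019355, with a mean of 28.8 FPKM and the fourth smallest SD of all (0.12), and ENSGALG00000002273, with a mean of 22.7 FPKM. At the opposite end, ENSGALG00000006704 was listed above 0 in all 3 libraries at a mean of only 20.2 FPKM. It stood at 22.2 FPKM in hypothalamus HEP 3 and 17.96 FPKM in hypothalamus LEP 4, at 16.1 to 22.7 FPKM in the pituitaries and at 21.8 to 23.5 FPKM in the ovaries, and it was kept by both scalings.

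Listing went with level, and in each range of level from 20 FPKM up it was more frequent in the even genes. By their mean in hypothalamus HEP 3 and LEP 4, even genes at 20 to 30 FPKM were listed in all 3 libraries in 39 of 66 cases (59.1%), against 42.2% of the other genes at that level. At 30 to 60 FPKM the share was 60 of 77 (77.9%), against 64.5%, and at 60 FPKM and over 44 of 48 (91.7%), against 85.1%. Under 20 FPKM it was 5 of 9 even genes, against 21.0% of the others, but levels in that range were unlike, since no even gene was under 16.8 FPKM and the others went down to 0.0924 FPKM. Over the 4854 genes in order of SD, the share listed in all 3 was 66.7% in the first 486 and 40.2% in the last 485. The share listed in none was 2.06% and 25.4%. Median levels over the 13 libraries were 35 and 43.7 FPKM. Levels in the hypothalamus were not compared along this order, so their part in the fall was not tested. The fall was not steady. Of 10 groups of like size, the second had 66.9%, the third 59.3%, and the fourth to ninth between 48.2% and 53.4%. Among these the share fell from the fifth group to the eighth and stood at 52.2% in the ninth. Within the 200 there was no such step, with 74 of the most even 100 and 74 of the others listed in all 3. Gene length and reads per gene, which may also bear on listing, are not in the files, and their part was not tested.

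**Figure D5:**
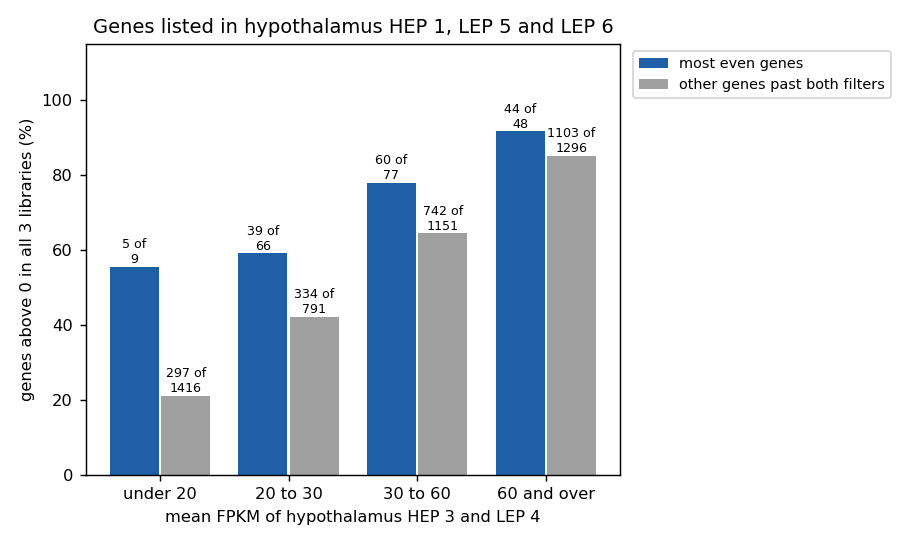
Share of genes listed above 0 FPKM in all of hypothalamus HEP 1, LEP 5 and LEP 6 (y axis, percent) by the gene's mean FPKM in hypothalamus HEP 3 and LEP 4 (x axis), for the 200 most even genes (blue) and the 4654 other genes past both filters (grey), with counts above the bars. The share rises with level, to 91.7% of even genes and 85.1% of the others at 60 FPKM and over.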

How the data were processed

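The authors deposited FPKM values per gene, with 1 column for each of 16 libraries and 17108 rows. RNA was extracted by column (RNeasy) and made into Illumina libraries, per the labels' protocols. The aligner, quantification tool, build and annotation were not given in the sources used here. Steps of whole reads could not be read from low values. Of the ratios under 0.3 FPKM, 3.97% to 16.3% lay within 0.05 of the commonest one (log2). No share expected without steps was set beside these, so steps are not excluded. Depth is therefore unknown and no counting interval is given. No libraries were identical.

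The 200 genes, the lists and the tests were chosen with earlier results of these data known. Contrasts used limma 3.58.1 in R 4.3.3 (trend, group means of tissue by production, 13 libraries, log2(FPKM + 1), mean FPKM of at least 1, two-sided p). The hypothalamus has 1 library per production group in this fit, so its spread is taken from the other groups. The gap between its 2 libraries is fitted as a production difference and adds nothing to the SE. The fit was tested on simulated data. Hens pair the tissues by the labels' codes. Deviations from group means correlated across genes between pituitary and ovary of a hen with r of -0.037 to 0.142 over 5 hens. Genes named were the first by evenness, abundance, tissue difference, listing and HEP against LEP p, 2 IDs at most each way per contrast, plus those said to be chosen later. Alternatives were other pseudocounts, filters, spread measures, scalings, a hen block and fewer libraries.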

Additional observations from a re-analysis of the deposited data

How the results depend on the processing

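Of the 200 genes, 197 were kept with a pseudocount of 0.1, 179 by the coefficient of variation and 155 by the range. Fewer were kept by the SD over the 3 tissue means (106), a mean of at least 5 FPKM (108) or 50 FPKM (61), no filter on the mean (63), median-ratio scaling (36), quantile normalization (44), HEP hens only (89), LEP hens only (113) and without the 2 hypothalamus libraries (82, chosen after seeing the data). A lower cut on the mean, or none, lets more genes compete for the 200 places. With 50 FPKM every gene of the list at or above that mean stays by the rule. The 61 therefore only counts such genes and says nothing of how stable the list is. Leaving out 1 library kept 118 to 191.

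The number of listed genes above 0 in all 3 hypothalamus libraries with few genes was 148, and became 128 by tissue means, 113 and 175 with a mean of at least 5 and 50 FPKM, 69 with no filter on the mean, 132 with median-ratio scaling and 120 in HEP hens only. Leaving out 1 library gave 131 to 152. These counts are of different lists of genes, and the share of the other genes was not given for each setting. That share rises with level. At a mean of 20 to 30 FPKM 38.5% of the other genes were listed in all 3 libraries, and at 100 FPKM and over 76.9%. Of the 12312 genes above 0 in all 13 libraries 30.3% were. The counts with other filters on the mean therefore cannot tell evenness from level.

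Genes of the 200 past the limma threshold numbered 28, 27 and 32 for hypothalamus against pituitary, hypothalamus against ovary and pituitary against ovary. With a log2 difference of at least 1 also required they were 0, 0 and 0, where 4504, 5555 and 4724 of all 12745 genes passed. The SD cut of the rule keeps such differences out of the list, so the 0 counts are no result about it. With median-ratio scaling the numbers were 63, 155 and 135 (64.1%, 66.9% and 72.9% of all genes). With quantile normalization they were 59, 69 and 142 (64.1%, 66.3% and 73.3%), and with hen as replicate block 11, 11 and 16 (54.4%, 62.7% and 68.2%). Leaving out 1 library gave 7 to 38, 12 to 42 and 14 to 50 (47.1% to 61.5%, 54% to 68.4% and 64.5% to 71.8% of all genes). The pseudocount of 0.1 and no filter stayed within 1.5 times these numbers. The median of all genes was -0.0070 with median-ratio scaling, against -0.47 as deposited, for hypothalamus minus ovary, and -0.015, against -0.31, for pituitary minus ovary. For HEP against LEP and its interaction 0 of the 200 passed in every fit run, the hen block (random effect, correlation 0.103) included. No production group has over 3 libraries of a tissue, so no single library was tested as an outlier. Depth is unknown, so what counting error limits cannot be stated. Beyond the effect of the size factors on a list chosen to be flat, the cause of these shifts was not tested.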
